A study of Mus musculus with 6 samples.

Results

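The splicing genes described here are the 73 protein-coding genes, of 55421 genes in the deposited table, whose symbols begin with Srsf and a number, Tra2a or Tra2b, Hnrnp, Snrp, Sf3a or Sf3b and a number, U2af, Prpf or Luc7l. They fall into 8 families: 11 Srsf, 2 Tra2, 20 Hnrnp, 12 Snrp, 9 Sf3, 3 U2af, 13 Prpf and 3 Luc7l genes. The rule uses names and no measured value. Spliceosome genes with other symbols, such as those that begin with Snrnp, are treated as related lists. A further 5 symbols fit the name patterns but are processed pseudogenes and were left out, the highest of them Snrpert at a mean of 120.8 normalized reads.

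The study sequenced RNA of germinal centre B cells from 3 wildtype and 3 SFR KO samples, 6 libraries in all. Both groups were C57BL/6 mice that carried an AID-GFP reporter, were immunized with NP(18)OVA in alum, and had their spleen cells isolated on day 9, when GFP+ cells were sorted. AID is the DNA deaminase that acts in antibody diversification, and the labels name the GFP+ cells germinal centre B cells. The SFR KO genotype is a deletion of a stretch of the Slam locus that begins within Cd244 and ends within Slamf6. It takes in Ly9, Slamf7, Cd48, Slamf1 and Cd84, which encode cell-surface receptors of immune cells. The labels give neither age nor sex, and do not state whether each library came from a separate mouse. The p-values below therefore measure the spread between these samples, which may be technical.

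Splicing removes introns from precursor messenger RNA. Small nuclear ribonucleoproteins (snRNPs) named U1, U2, U4, U5 and U6 assemble on each intron, recognise the splice sites and the branch point, and catalyse the joining of exons. SR proteins (Srsf and Tra2 genes) bind exons and favour their inclusion, and many hnRNP proteins (Hnrnp genes) bind RNA in a way that masks splice sites, so the balance between them shapes alternative splicing. In B cells, alternative processing of immunoglobulin heavy chain transcripts sets whether the membrane or the secreted form of the antibody is made.

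The libraries held between 28269310 and 33053024 reads assigned to genes. The 7 deleted genes summed to 10457 to 20669 normalized reads in wildtype libraries and 5.47 to 16.8 in SFR KO libraries, as the genotype labels have it. The 11 markers of germinal centre B cells summed to 327239.6 to 333467 normalized reads in wildtype and 337329 to 348183 in SFR KO. T cell markers were low beside them but moved with genotype, at a sum of 4298 to 4605 in wildtype and 4715 to 7016 in SFR KO, with 9 of 10 above 0 on the log2 scale and none absent from all libraries. Plasma cell markers summed to 29586 to 30242 in wildtype and 32630.4 to 33227 in SFR KO, and neutrophil markers to 857 to 6226 and 362 to 1872. Transcripts of the mitochondrial genome, taken as a sign of RNA quality, were above 0 in 10 of 10 tested and summed to 463562 to 660939 in wildtype and 757380.0 to 761311 in SFR KO. Nuclear-retained RNAs were above 0 in 3 of 3 tested, with a median log2 difference of 0.48, and summed to 4392 to 6046 in wildtype and 6071 to 9002 in SFR KO. The part of all these in the differences below, those of Clk1, Clk4 and Rsrp1 included, was not tested. In bulk samples fewer cells of a type and less RNA per cell cannot be told apart.

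At the level of whole genes, the splicing machinery was close to equal in the 2 genotypes. Of the 73 genes, 71 averaged 10 or more normalized reads and were tested with limma, where a gene is called at an adjusted p under 0.05 over all 13562 genes tested. None of the 71 was called higher and none was called lower, beside 0.155% of all tested genes called higher and 0.31% called lower (0.465% in either direction). At an unadjusted limma p under 0.05 there were 19 of the 71, beside 16.1% of all genes. The edgeR test on recovered reads also called 0 of the 71, beside 0.221% of all genes. DESeq2 on the same reads called 3 of the 71 (4.23%), all higher in SFR KO, beside 3.62% of all tested genes, so the share was near the background. The 3 were Hnrnpa1, Hnrnpdl and Hnrnpa2b1. Limma with sample weights called 2 of the 71 (Hnrnpa1 and Hnrnph1), beside 4.65% of all genes, and limma without SFR KO 1 also called 2 (Hnrnph1 and Prpf38b), beside 3.7% of all genes. In the authors' deposited table, 2 of the 68 splicing genes with an adjusted p were under 0.05, beside 4.8% of all genes there, and both were higher in SFR KO: Hnrnpa1 and Hnrnpdl.

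The differences that were measured were small. Among the 68 tested splicing genes that averaged 100 or more normalized reads, the log2 difference of SFR KO minus wildtype ran from -0.15 for Prpf3 to 0.24 for Hnrnpdl, which is 0.903 to 1.19 times the wildtype level. Their standard errors had a median of 0.06. The 95% limma interval of the difference lay wholly inside a 1.5-fold change in either direction for 68 of 71 tested genes, and inside a 1.2-fold change for 54. The 3 genes with wider intervals were Hnrnpll, Snrpn and Prpf40b, each under a mean of 100 normalized reads. These intervals are not adjusted for the number of genes.

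**Figure D1:**
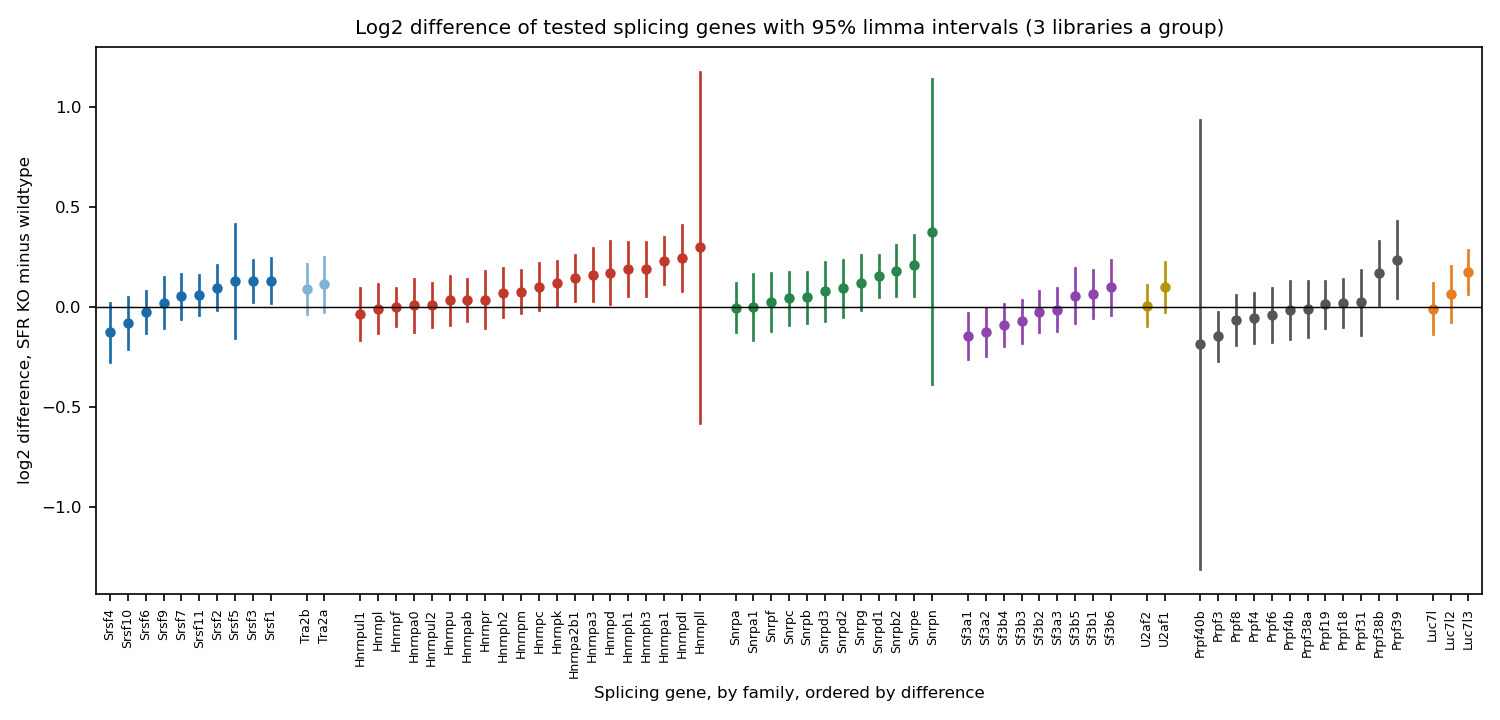
Each point is the log2 difference of SFR KO minus wildtype (vertical axis, log2 units) of a tested splicing gene, grouped and coloured by family, with its 95% limma interval as a bar (3 libraries a group); 1 tested gene is not drawn. Nearly all points lie within a log2 of 0.25 of 0, the Hnrnp and Snrp points mostly above the line and the Sf3 points mostly at or below it, and the 3 long bars belong to the weakly detected Hnrnpll, Snrpn and Prpf40b.

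More of the splicing genes lay above 0 than below. The log2 difference was above 0 for 49 of 71 (69.0%) and below 0 for 22, with a median of 0.05, beside a median of -0.00 over all tested genes. At an unadjusted limma p under 0.05 there were 16 higher genes (22.5%), beside 7.04% of all tested genes, and 3 lower genes (4.23%), beside 9.07% of all. The SFR KO libraries all lay above the wildtype libraries for 18 of 71 (25.4%), beside 9.78% of all tested genes, and all below for 5 (7.04%), beside 11.9%. These are descriptions of counts over genes that share libraries and were not tested as a set. The shares are also not matched for depth. The median splicing gene tested averaged 4848 normalized reads, beside 615 for all tested genes, and the median standard errors were 0.06 and 0.10. The median absolute log2 difference was smaller for the splicing genes, at 0.08 beside 0.12. Together the 73 genes took 2.12%, 2.17% and 2.13% of all reads in wildtype libraries 1 to 3 and 2.20%, 2.24% and 2.24% in SFR KO libraries 1 to 3.

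The hnRNP family gave 8 of the 16 genes that were higher at an unadjusted p under 0.05. These were 40.0% of its genes, beside 7.04% of all tested genes, and Hnrnpa1 had the smallest p of all 71. The median gene of the family averaged 15422 normalized reads, beside 615 for all tested genes, so these shares are not matched for depth. The family was above 0 for 17 of its 20 genes, all tested, with a median log2 difference of 0.09. None was lower at an unadjusted p under 0.05, beside 9.07% of all tested genes. The normalized reads of the family summed to 348683, 368783 and 352999 in wildtype and 369842, 381506 and 382401 in SFR KO. Every SFR KO library thus lay above every wildtype library. Hnrnpa1 encodes hnRNP A1, which binds exonic and intronic silencers and opposes SR proteins, and lies at chr15:103240432-103246692 on the plus strand (GENCODE release M21, GRCm38). Its normalized reads were 13934, 15226 and 13889.8 in wildtype and 17224, 16608 and 16683 in SFR KO. The groups did not overlap, and the 3 SFR KO values lay close together. The log2 difference was 0.23 ± 0.05 (SE, n = 3 a group), with an adjusted limma p of 0.0905 that missed the threshold and an adjusted DESeq2 p of 0.00212.

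Hnrnpdl, at chr5:100033577-100039664 on the minus strand, encodes an hnRNP D-like protein that binds AU-rich RNA. It measured 3638, 4465 and 3882 normalized reads in wildtype and 4621, 4773 and 4759 in SFR KO, without overlap, a log2 difference of 0.24 ± 0.07 with an adjusted limma p of 0.155. Wildtype 2 stood nearest to the SFR KO libraries, which it also did for Hnrnpa1. Hnrnpa2b1, at chr6:51460932-51469894 on the minus strand, encodes the hnRNP A2 and B1 isoforms, close relatives of hnRNP A1. It was the splicing gene with the most reads, at 51824, 55099.5 and 52814 in wildtype and 58208, 59363 and 58729 in SFR KO, without overlap. Its log2 difference was 0.14 ± 0.05, with an adjusted limma p of 0.22, and 0.09 after correction for GC content. Over all alternative settings the adjusted p ran from 0.00212 to 0.259 for Hnrnpa1, from 0.0397 to 0.385 for Hnrnpdl and from 0.0457 to 0.515 for Hnrnpa2b1.

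The 250 bases before the RefSeq start of Hnrnpa1 and Hnrnpa2b1 (GRCm38.p6) are shown because these are the genes DESeq2 called whose window lies wholly outside the annotated gene. They are at chr15:103240147-103240396 on the plus strand and chr6:51469895-51470144 on the minus strand, and for Hnrnpa2b1 the first of 2 listed starts was used. Each is written 5′ to 3′ on its gene's strand, with the words CCAAT and GGGCGG, read on either strand, in capitals.
Hnrnpa1: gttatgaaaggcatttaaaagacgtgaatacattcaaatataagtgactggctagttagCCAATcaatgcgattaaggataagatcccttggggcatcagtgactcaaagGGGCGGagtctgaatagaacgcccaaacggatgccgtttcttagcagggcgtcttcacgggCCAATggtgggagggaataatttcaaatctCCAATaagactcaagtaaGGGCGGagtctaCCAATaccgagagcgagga
Hnrnpa2b1: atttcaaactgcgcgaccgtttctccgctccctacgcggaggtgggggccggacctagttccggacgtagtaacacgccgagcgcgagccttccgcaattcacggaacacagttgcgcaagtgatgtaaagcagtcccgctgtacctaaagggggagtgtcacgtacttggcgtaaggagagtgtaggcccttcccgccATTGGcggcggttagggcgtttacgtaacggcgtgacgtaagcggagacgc
The Hnrnpa1 window holds 4 CCAAT words and 2 GGGCGG words, none overlapping another, and the Hnrnpa2b1 window holds 1 CCAAT word, on the opposite strand. Neither holds any of the 3 other words searched on both strands. Of 63 splicing genes with a listed promoter, 30 (47.6%) hold CCAAT in their 250 bases, beside 33.8% of 32851 promoters, and 42 (66.7%) hold GGGCGG, beside 32.7%. Of those 3, the ETS core CCGGAAG stands in 17 of the 63 (27.0%), beside 6.91% of all promoters, and the TATA word TATAAA in 5 (7.94%), beside 12.4%. The E-box word CACGTG stands in 5 of the 63 (7.94%), beside 6.02% of all. Each splicing gene entered once, by its most upstream listed start, while the 32851 promoters are all listed starts of genes expressed or not. The shares are therefore not like for like. A match of letters is no evidence that a factor binds there.

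**Figure D2:**
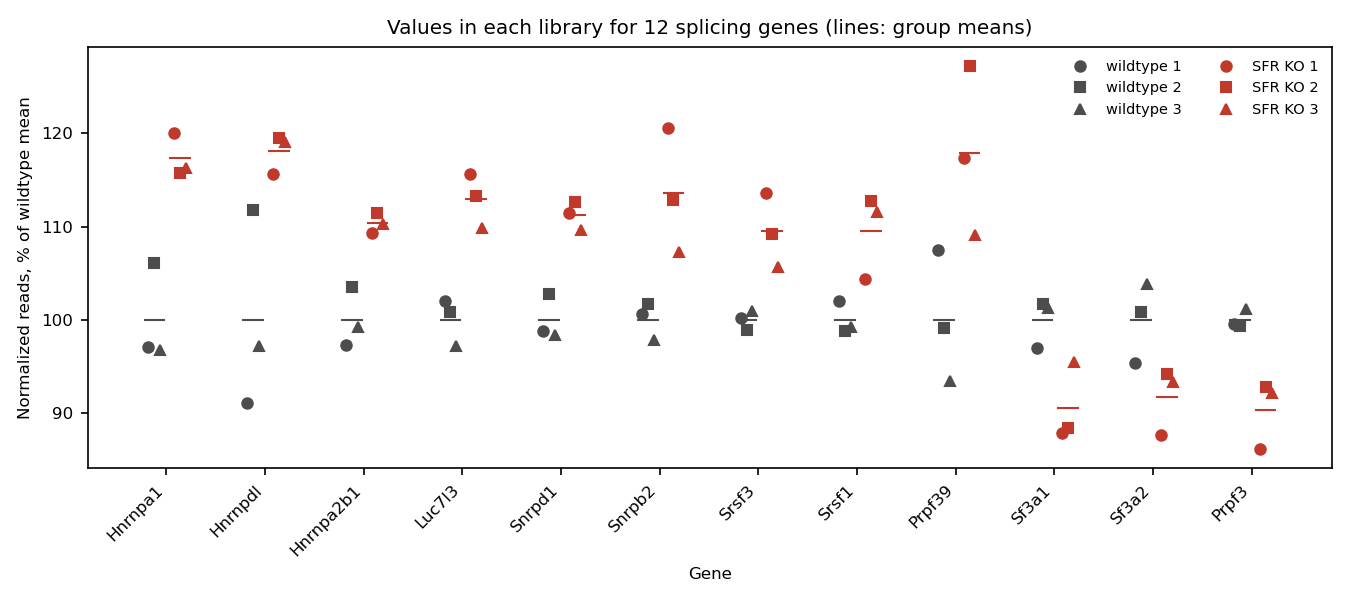
Normalized reads in each of the 6 libraries for 12 splicing genes, as a percentage of the wildtype mean of that gene (vertical axis), with wildtype in grey, SFR KO in red, a marker shape per library and a line at each group mean. The first 9 genes have every SFR KO point above every wildtype point, the last 3 (Sf3a1, Sf3a2 and Prpf3) have every SFR KO point below, and no group mean is more than 1.19 times the other.

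The 5 other hnRNP genes at an unadjusted limma p under 0.05 were Hnrnpa3, Hnrnpd, Hnrnph1, Hnrnph3 and Hnrnpk, with log2 differences of 0.16, 0.17, 0.19, 0.19 and 0.12. After correction for GC content these were 0.04, 0.09, 0.00, 0.15 and 0.06. Hnrnpab, which encodes an hnRNP of the A and B type and was the highest splicing gene per exon length, measured 33297, 34479.5 and 33879.9 normalized reads in wildtype and 34123, 34914 and 35247 in SFR KO, with overlapping groups. Its log2 difference was 0.04 ± 0.05 (limma, adjusted p = 0.757). The lowest difference of the family was that of Hnrnpul1, an hnRNP U-like protein, at -0.04 ± 0.06 (limma, adjusted p = 0.813), with 20965, 22744 and 21138 in wildtype and 19823, 21474 and 21975 in SFR KO. Hnrnpll encodes a splicing regulator known for the switch of CD45 isoforms and for the secreted form of immunoglobulin in plasma cells. It was barely detected, at 67.8, 34.9 and 23.4 normalized reads in wildtype and 58.1, 35.0 and 51.5 in SFR KO. Its difference of 0.30 ± 0.39, the highest of the family, has a 95% interval from -0.58 to 1.17. At this depth the values are thus compatible with a fall, no change or a rise within that interval.

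The Srsf genes encode the classical SR proteins, which bind exonic enhancers through RNA recognition motifs and contact the spliceosome through arginine and serine rich tails. Of 11 genes, 10 were tested: 7 lay above 0, and the median log2 difference was 0.06. At an unadjusted p under 0.05, 2 were higher (20.0%) and none lower, beside 7.04% and 9.07% of all tested genes. The family took 0.282%, 0.284% and 0.285% of all reads in wildtype and 0.292%, 0.303% and 0.296% in SFR KO. Srsf3, the smallest SR protein, measured 10193, 10061 and 10275 normalized reads in wildtype and 11562, 11118 and 10747 in SFR KO, without overlap, for a difference of 0.13 ± 0.05 (limma, adjusted p = 0.221). Srsf1, the founding member of the family, measured 21631, 20953 and 21041 in wildtype and 22135, 23914 and 23671 in SFR KO, also without overlap, for 0.13 ± 0.05 (limma, adjusted p = 0.239). Both differences were 0.03 after correction for GC content.

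Srsf2, whose protein marks nuclear speckles, was the highest of the family per exon length and measured 14883, 15825 and 16064 in wildtype and 16109, 17001 and 16866 in SFR KO (0.10 ± 0.05, limma, adjusted p = 0.394). Srsf4 had the lowest difference, -0.13 ± 0.07 (limma, adjusted p = 0.387), from 4722, 4946 and 5110.0 in wildtype and 4113, 4803 and 4638 in SFR KO, with overlap. Srsf12 was at the limit of detection, with 0, 4 and 0 reads in wildtype and 8, 0 and 0 in SFR KO, and was not tested. The Tra2 genes encode SR-like proteins that promote inclusion of exons with GA-rich enhancers. Tra2a measured 4962, 4526 and 4489 in wildtype and 4744, 5043 and 5325 in SFR KO (0.11 ± 0.06, limma, adjusted p = 0.414), and Tra2b measured 5982, 5329 and 5367 against 5992, 5825 and 5913 (0.09 ± 0.06, limma, adjusted p = 0.47). The Tra2a groups overlapped, while for Tra2b wildtype 1 lay among the SFR KO libraries.

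Snrp genes encode the Sm proteins, which form a ring of 7 around the RNA of most spliceosomal snRNPs, and proteins particular to U1 (Snrpa, Snrpc) and U2 (Snrpa1, Snrpb2). All 12 were tested and 11 lay above 0, with a median of 0.09. At an unadjusted p under 0.05, 3 were higher (25.0%) and none lower, beside 7.04% and 9.07% of all tested genes. The 7 genes of the Sm ring (Snrpb, Snrpd1, Snrpd2, Snrpd3, Snrpe, Snrpf and Snrpg) were above 0 in 7 of 7, with a median of 0.09. After GC correction the median was 0.10 and 6 of the 7 lay above 0, with Snrpf at -0.06. Snrpd1 measured 3776, 3929 and 3759 normalized reads in wildtype and 4259, 4304 and 4190.2 in SFR KO, without overlap (0.15 ± 0.05, limma, adjusted p = 0.16). Snrpb2 measured 2757, 2786 and 2679 in wildtype and 3304, 3094 and 2939.9 in SFR KO, again without overlap (0.18 ± 0.06, limma, adjusted p = 0.175). Its difference was 0.05 after GC correction, while that of Snrpd1 was 0.10. With correction for GC content and transcript length, Snrpd1 and Snrpb2 were each at 0.02, and Snrpb was at 0.04.

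Within the Sm ring, Snrpb had the highest level per exon length and measured 9642, 9471 and 10773 in wildtype and 10406, 10232 and 10216 in SFR KO, all inside the wildtype range (0.05 ± 0.06, limma, adjusted p = 0.732). The lowest difference of the Snrp genes was that of Snrpa, at -0.00 ± 0.05 (limma, adjusted p = 0.983), with 4429, 4352 and 4534 in wildtype and 4709, 4224 and 4363 in SFR KO. The highest was that of Snrpn, an imprinted gene used mainly in brain, at 0.38 ± 0.34 (limma, adjusted p = 0.64), from 58.5, 24.6 and 48.8 normalized reads in wildtype and 47.3, 66.8 and 49.6 in SFR KO. Snrpn shares 589 exon bases with Gm38393 on the same strand, so its reads are of uncertain origin.

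The Sf3 genes encode the SF3a and SF3b complexes of the U2 snRNP, which hold the branch point of the intron. Of the 9, 6 lay below 0, with a median of -0.02, and 4 of 9 (Sf3a1, Sf3a2, Sf3b3 and Sf3b4) had every SFR KO library below every wildtype library, beside 11.9% of all tested genes. Whether families differ from each other was not tested. Sf3a1, the largest SF3a subunit, measured 9398, 9855 and 9816 normalized reads in wildtype and 8510.5, 8566 and 9248 in SFR KO (-0.14 ± 0.05, limma, adjusted p = 0.218). Sf3a2, its partner, measured 5491, 5808 and 5979 in wildtype and 5044, 5421 and 5376 in SFR KO (-0.13 ± 0.05, limma, adjusted p = 0.291). Both had an unadjusted p under 0.05, and neither was called by limma, edgeR or DESeq2. Sf3a1 kept its difference after GC correction, at -0.15, while that of Sf3a2 was then -0.08. With correction for GC content and transcript length, Sf3a1 was at -0.10 and Sf3a2 at -0.07.

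Sf3b2, the Sf3 gene with the highest level per exon length, measured 14306, 15233 and 14630.3 in wildtype and 14447, 14619.9 and 14381 in SFR KO, with overlap (-0.02 ± 0.05, limma, adjusted p = 0.856). Sf3b6, whose protein contacts the branch point adenosine, had the highest difference of the family, 0.10 ± 0.06 (limma, adjusted p = 0.468), from 3249.9, 3458 and 3359 against 3833, 3604 and 3349. The share of all reads of the family was 0.246%, 0.252% and 0.245% in wildtype and 0.241%, 0.244% and 0.245% in SFR KO. U2af1 and U2af2 encode the heterodimer that reads the AG at the intron's end and the pyrimidine tract before it. U2af1 measured 3263, 3645 and 3321 normalized reads in wildtype and 3709, 3641 and 3594 in SFR KO (0.10 ± 0.06, limma, adjusted p = 0.428). U2af2 measured 12416, 12530.2 and 13017 against 12352, 13031 and 12764 (0.01 ± 0.05, limma, adjusted p = 0.96). U2af1l4, a relative of U2af1, had 7, 8 and 17 reads in wildtype and 4, 2 and 4 in SFR KO. It was below the minimum for testing, and 1086 of its exon bases are shared with the gene model Gm49396 on the same strand, so these reads are of uncertain origin.

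Prpf genes carry the names of yeast splicing mutants and act at several steps, from U1 binding (Prpf39, Prpf40b) through the U4, U5 and U6 particle (Prpf3, Prpf4, Prpf6, Prpf8, Prpf31) to the activation and later steps of the spliceosome (Prpf18, Prpf19, Prpf38a). All 13 were tested: 5 lay above 0, and the median was -0.01. At an unadjusted p under 0.05, 2 were higher and 1 lower, beside 7.04% and 9.07% of all tested genes. Prpf3, a protein of the U4 and U6 particle, measured 2066, 2061 and 2100.5 normalized reads in wildtype and 1788, 1926 and 1912 in SFR KO, without overlap. Its difference was -0.15 ± 0.05 (limma, adjusted p = 0.234), and -0.17 after GC correction. Prpf39 measured 865, 797 and 752 in wildtype and 944, 1024 and 878 in SFR KO, without overlap (0.24 ± 0.08, limma, adjusted p = 0.223), and 0.06 after GC correction. It shares 599 exon bases with Fkbp3 on the opposite strand. Prpf38b, the other of the 2 higher genes, had overlapping groups and a difference of 0.17 ± 0.07 (limma, adjusted p = 0.286). After GC correction the difference of Prpf38b was 0.03.

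Prpf8, the scaffold of the catalytic centre and the highest Prpf gene per exon length, measured 26084, 27282 and 25560.3 in wildtype and 24512, 24216 and 26802 in SFR KO, with overlap (-0.06 ± 0.06, limma, adjusted p = 0.625). The lowest difference was that of the weakly detected Prpf40b, at -0.19 ± 0.50 (limma, adjusted p = 0.899), from 10.3 to 34.4 normalized reads in wildtype and 14.2 to 30.5 in SFR KO. Luc7l genes encode relatives of a yeast U1 snRNP protein that affect the choice of 5′ splice site. Luc7l3 measured 3798, 3753 and 3617 in wildtype and 4304, 4217 and 4091 in SFR KO, without overlap (0.18 ± 0.05, limma, adjusted p = 0.136), and 0.09 after GC correction. Luc7l2 measured 6619.6, 6590.2 and 6369.5 against 6271, 6924 and 7337 (0.07 ± 0.06, limma, adjusted p = 0.656). Luc7l measured 2882, 2719 and 2826 against 2800.4, 2647 and 2931 (-0.01 ± 0.06, limma, adjusted p = 0.958). The Luc7l and Luc7l2 groups overlapped.

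Levels of different genes were compared per kilobase of exon, over the union of a gene's annotated exons. The median splicing gene stood at 1326 normalized reads per kilobase. The highest was Hnrnpab, at 12180.2 ± 213 in wildtype and 12495 ± 208 in SFR KO (SD, n = 3). Next came Hnrnpa0, at 9052 ± 467 and 9106 ± 478, and Hnrnpa2b1, at 8087 ± 255 and 8926 ± 87.9. The difference between these 2 was above both SDs in wildtype and below the SD of Hnrnpa0 alone in SFR KO. Per kilobase of the longest transcript the order was another: Hnrnpa2b1, at a mean of 15365 over all libraries, stood above Hnrnpab, at 14482, and Hnrnpk, at 9977, stood above Hnrnpa0, at 9079. Likewise Tra2b, at 1395, then stood above Tra2a, at 1279.9. Hnrnpa0 encodes an hnRNP that also binds AU-rich messenger RNA ends. After these 3 hnRNP genes came Srsf2, at 5271 ± 211 and 5632 ± 163, and Snrpb, at 5041 ± 358 and 5205 ± 53.4. Their difference was below the SD of Snrpb alone in wildtype and above both SDs in SFR KO.

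The highest genes of the other families stood lower on this scale. Prpf8 stood at 3526 ± 118 in wildtype and 3374 ± 189.7 in SFR KO, U2af2 at 3077 ± 77.6 and 3092 ± 83.2, and Sf3b2 at 2158 ± 69.0 and 2123 ± 18.1. Tra2a stood at 671 ± 37.9 and 725 ± 41.8, and Luc7l2 at 540.1 ± 11.3 and 566 ± 44.5. The median gene of a family ran from 414 normalized reads per kilobase for Prpf to 2749.8 for Hnrnp, over tested genes. At the bottom, Hnrnpll, Prpf40b, Snrpn, U2af1l4 and Srsf12 were all under 30 in both groups.

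**Figure D3:**
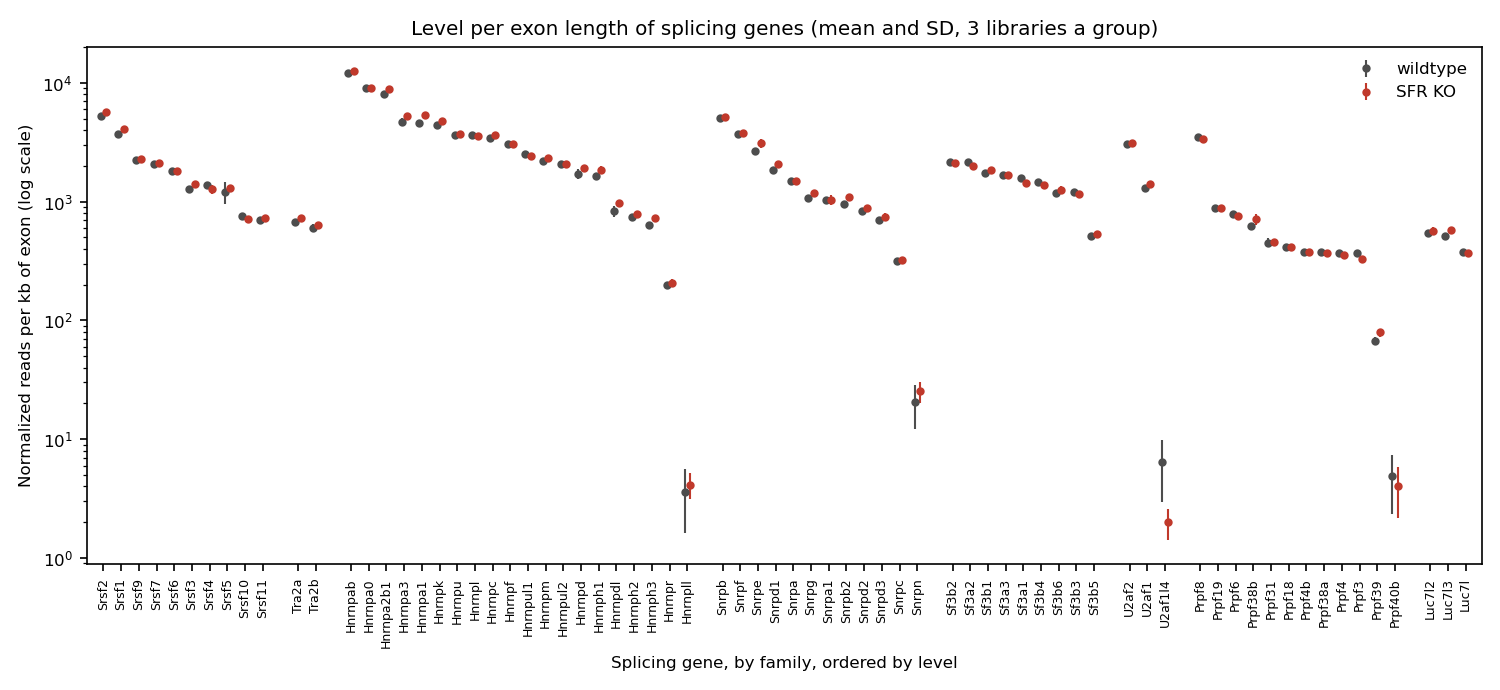
Normalized reads per kilobase of exon (vertical axis, log scale) for splicing genes grouped by family, as mean and SD of 3 libraries, wildtype in grey and SFR KO in red; Srsf12, near 0, is left out, and 1 further gene is not drawn. The paired points lie close together for all but a few weakly detected genes, such as U2af1l4, while levels between genes run from under 10 for Hnrnpll and Prpf40b to 12495 for Hnrnpab in SFR KO.

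The direction of the small differences went with GC content, the share of G and C bases in a gene's longest transcript. Over the 71 genes the Spearman correlation of log2 difference with GC content was -0.532, and over 13539 tested genes it was -0.272. Points of both share the 6 libraries, and no p-value is given for a relation across genes. The 35 splicing genes under 45% GC had a median log2 difference of 0.11 and the 36 others 0.01, beside 0.07 for 3547 tested genes under 45% and -0.03 for the 9992 others. The families differ in this respect: the median GC content was 42.2% for Srsf, 43.9% for Hnrnp, 45.7% for Snrp, 46.2% for Prpf and 49.8% for Sf3. In the small families it was 42.3% for Tra2, 42.0% for Luc7l and 54.1% for U2af. The 2 tested U2af genes lay above 0 although their GC content was high.

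When each library's trend with GC content was removed before the fit, the median over the splicing genes was 0.02, beside -0.02 over all tested genes, and 43 of 71 lay above 0. Limma then called none of the 71, beside 0.155% of all genes, and 8 had an unadjusted p under 0.05, beside 13.8% of all. Of these 8, 2 were Hnrnp genes. The corrected median was 0.04 for Hnrnp, 0.06 for Snrp, 0.01 for Srsf, -0.02 for Sf3 and -0.05 for Prpf. In the small families it was 0.02 for Tra2, -0.01 for Luc7l and 0.09 for U2af, where U2af1 was at 0.14 ± 0.06 (limma, adjusted p = 0.36). Hnrnpa1 kept most of its difference, at 0.19 ± 0.05 (limma, adjusted p = 0.187), as did Hnrnpdl, at 0.22 ± 0.08 (limma, adjusted p = 0.262). Hnrnph1, whose protein binds runs of G and whose transcript has the lowest GC content of the 71 at 37.1%, went from 0.19 ± 0.06 to 0.00 ± 0.08. Whether GC content itself or something that moves with it sets these differences was not tested.

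**Figure D4:**
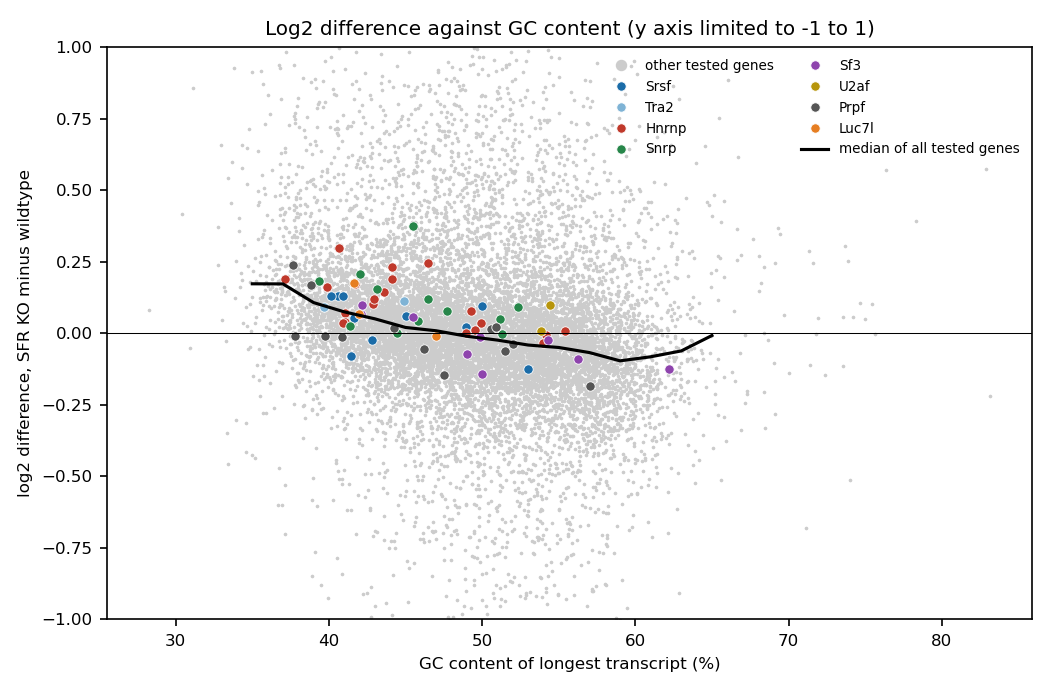
Log2 difference of SFR KO minus wildtype (vertical axis, limited to -1 to 1) against GC content of the longest transcript (horizontal axis, %), with splicing genes coloured by family, other tested genes as light grey points and the median of all tested genes in bins of 2% as a black line. The line falls from 0.17 at 37% GC to -0.10 at 59% GC, and the splicing genes scatter around and mostly just above it.

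Splicing factor genes are known to control their own output through alternative exons or retained introns that send the transcript to nonsense-mediated decay, and gene-level reads sum over such forms. In the annotation, 38 of the 71 tested genes (53.5%) have a transcript marked for nonsense-mediated decay, beside 29.6% of 11399 tested protein-coding genes, and 54 (76.1%) have one marked as a retained intron, beside 60.0%. Of the 10 tested Srsf genes, 9 have a decay transcript, beside 1 of 9 Sf3 genes. These shares do not allow for the number of annotated transcripts, which also differs. Its median was 7.0 for the splicing genes beside 5.0 for all tested protein-coding genes, and 7.5 for Srsf beside 4.0 for Sf3. The median log2 difference was 0.07 for splicing genes with a decay transcript and 0.02 for the 33 without, beside -0.01 for either kind over all protein-coding genes tested. These medians pool the families and are not corrected for GC content. With and without a decay transcript they were 0.16 and 0.05 for Hnrnp, -0.01 and -0.03 for Prpf, but 0.03 and 0.11 for Snrp. Srsf had only 1 gene without such a transcript, and Sf3 only 1 with. Isoforms are not resolved by these values, so a change in splicing of these genes could stand beside equal totals and was not measured.

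Beyond the families, 8 lists of related genes held 201 symbols, of which 194 were in the table and 187 were tested. Limma called 3 of them, all higher in SFR KO, beside 0.155% of all tested genes called higher. The lists were chosen with earlier results of these data known, so this count cannot show an enrichment. Of 14 tested kinases, phosphatases and importers of SR proteins, 2 were called: Clk1 and Clk4, whose kinases phosphorylate SR proteins in the nucleus. Clk1 measured 1932, 1755 and 1887 normalized reads in wildtype and 2851, 3525 and 3281 in SFR KO (0.79 ± 0.08, limma, adjusted p = 0.00488), and Clk4 measured 819, 731 and 753 against 1081, 1318 and 1252 (0.66 ± 0.09, limma, adjusted p = 0.0246). Among 25 tested genes of other arginine and serine rich proteins the 1 called was Rsrp1, at 2460.2, 1656 and 2582 against 5401, 6833 and 6212 (1.48 ± 0.15, limma, adjusted p = 0.00526). With GC correction Clk4 was no longer called (0.52 ± 0.10, limma, adjusted p = 0.0996), while Clk1 (0.65 ± 0.09, limma, adjusted p = 0.0381) and Rsrp1 (1.46 ± 0.15, limma, adjusted p = 0.00754) were. In all 3 every SFR KO library lay above every wildtype library, and the differences are larger than the highest of the Srsf genes, 0.13.

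The other 6 lists had no gene called by limma. Their median log2 differences were -0.03 for 7 Snrnp-named proteins, 0.03 for 23 genes of the Lsm ring and snRNP assembly, and -0.02 for 45 helicases and catalytic-core proteins. They were -0.01 for 9 minor spliceosome proteins, 0.05 for 42 other regulators of alternative splicing and -0.06 for 23 genes of the exon junction complex and nonsense-mediated decay. At an unadjusted p under 0.05 these 6 lists held 1, 4, 10, 2, 13 and 6 genes in the same order, beside 16.1% of all tested genes, edgeR called 0 in each, and DESeq2 called 0, 0, 2, 0, 4 and 1, beside 3.62% of all. 

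**Figure D5:**
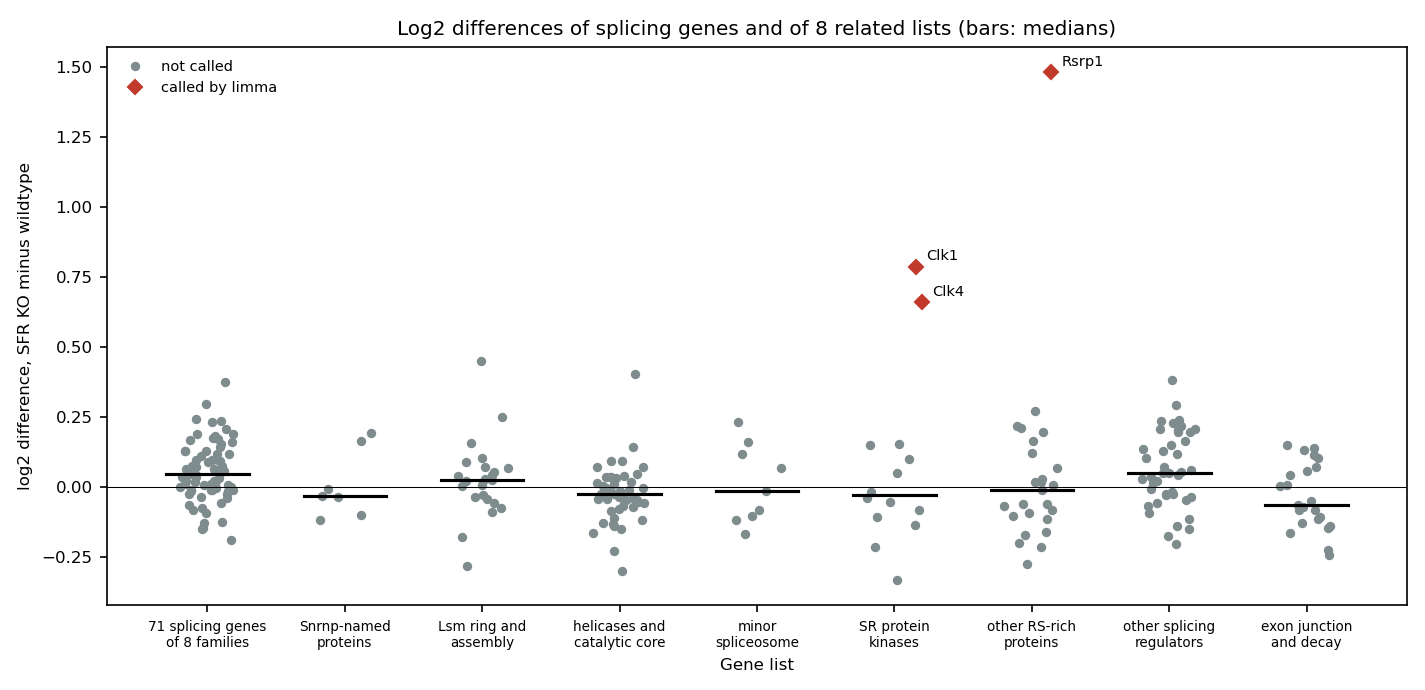
Log2 difference of SFR KO minus wildtype (vertical axis) for the 71 splicing genes and for the tested genes of 8 related lists, 1 point a gene, with bars at the medians and red diamonds for genes called by limma. All medians lie between -0.06 and 0.05, and Clk1, Clk4 and Rsrp1 stand above the points around them.

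The positions of some reads are uncertain. Exons of 28 of the 73 genes share bases with another annotated gene, and for 16 of them with a protein-coding one, and the sources used here do not give the strand setting of the counting. Sf3a2, for instance, shares 429 exon bases with Plekhj1 on the opposite strand, and Srsf2 shares 460 with Mettl23. Some of these genes also have processed pseudogenes, such as the 5 left out above, and the sources used here do not say how reads that map to more than 1 place were counted.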

How the data were processed

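RNA of 3 wildtype and 3 SFR KO samples was measured; groups follow the genotype in the labels, and replicates are numbered in accession order. The submitters' processing notes name the build GRCm38, the aligner STAR 2.5, the counter featureCounts 1.5 and DESeq2 1.14.1. No source used here gives the annotation release, strand setting or filters. Deposited by the authors were read counts per gene normalized to library size (a signal), the log2 fold change with its error, the test statistic (a score) and p-values. Whole reads were recovered for 100% of values within 1e-06, and gave totals of 28269310 to 33053024.

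The main test was limma 3.58.1 (lmFit, eBayes with trend, R 4.3.3), two-sided, on log2(normalized count + 1). It covered genes that averaged 10 or more, with Benjamini-Hochberg adjustment over 13562 genes. The added 1 makes the change of low genes smaller, but their values also depend on the method. Hnrnpll and Snrpn were 0.30 and 0.38 with limma and 0.20 and 0.31 with edgeR, while Prpf40b was -0.19 and -0.26. On the recovered reads edgeR 4.0.16 called 30 genes. Other alternatives were DESeq2 1.42.0, TMM scaling, pseudocounts 0.5 and 4, minimum means of 1, 50 and none, sample weights, a robust prior, GC content with or without length (natural splines, 4 degrees of freedom), and each library left out. Positions, lengths and GC content came from GENCODE M21, which matched 99.5% of genes; promoters came from RefSeq. Data were simulated for this comparison over 13562 genes. Limma recovered 4%, 40%, 74% and 92% of 50 genes each at a log2 change of 0.2, 0.4, 0.7 and 1. There were 11 false calls. The changed genes all averaged 100 or more normalized reads, so these shares do not cover lower genes. No trend with GC content was simulated.

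The splicing genes and all lists were chosen with earlier results of these data known. Named with every value are, per family, the 2 genes with the smallest limma p (1 in families of up to 3 tested), the highest per kilobase and both ends of the differences, untested genes, and called genes of related lists; Hnrnpa2b1, Hnrnpa0, Hnrnph1 and genes of counts of 5 or fewer were added after their values were seen. Genes not named enter the counts; 1 of them is not reported here.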

Additional observations from a re-analysis of the deposited data

How the results depend on the processing

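No paired analysis was possible because the labels give no replicate numbers. All splicing genes called were higher; none was called lower under any alternative. DESeq2 called 3 splicing genes, sample weights called 2 (Hnrnpa1 and Hnrnph1), and the fit without SFR KO replicate 1 called 2 (Hnrnph1, 0.25, limma, adjusted p = 0.0305, and Prpf38b, 0.25, limma, adjusted p = 0.0256); leaving out a library gave 0 to 2. Over all genes the main count of 63 became 30 with edgeR, 491 with DESeq2, 97, 98 and 129 with minimum means of 1, 50 and none, 630 with sample weights, 161 with a robust prior, 21 with GC correction and 20 with GC and length correction, and 11 to 501 without a library, the highest without SFR KO 1; the cause was not tested. In related lists DESeq2 called 12 genes in place of 3, GC correction, with or without length, called 2, and leaving out a library gave 2 to 6. The next counts are for the 29 tested genes named by the rule per family. They leave out Hnrnpa2b1, Hnrnph1 and Prpf38b, which were also called under some alternatives. Under 18 alternatives, 488 values of the 29 genes kept direction and side of the threshold. A further 3 passed it (Hnrnpa1 with DESeq2 and with sample weights, Hnrnpdl with DESeq2), and 28 changed sign, all uncalled. Snrpa was 0.0047 with edgeR, 0.0014 with DESeq2, 0.0032 with TMM and 0.0070 with GC correction. With GC correction Tra2b was -0.033, Hnrnpul1 0.0010, Sf3b2 0.016 and Luc7l2 -0.0098. With GC and length correction Tra2b was -0.018, Hnrnpul1 0.027, Sf3b2 0.031, Sf3b6 -0.011, Prpf8 0.0037 and Luc7l 0.0068. Without a library, U2af2 ran from -0.011 to 0.028, Prpf40b from -0.68 to 0.14, Luc7l from -0.045 to 0.029, Hnrnpul1 from -0.066 to 0.0081, Sf3b2 from -0.044 to 0.0015, Hnrnpll from -0.044 to 0.70 and Snrpa from -0.048 to 0.030. Per kilobase of the longest transcript, the median splicing gene was at 1935 in place of 1326. Depth limits Hnrnpll, Snrpn, Prpf40b, U2af1l4 and Srsf12. With 3 libraries a group, changes near a log2 of 0.2 are mostly missed.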
